A study of Mus musculus with 3 samples.

Results

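The Toll-like receptor genes Tlr1 to Tlr9 and Tlr13 were followed in splenic tumours of p53-haploinsufficient mice. They were taken as all non-control probes whose RefSeq transcript belongs to 1 of these 10 genes of the 22911 named on a 1-colour Agilent mouse array, which gave 16 of its 56605 probes. The LSD1 × p53+/− genotype was represented by 2 tumours, numbered 2 and 3 (whether by animal or by line is not stated), here LSD1 tumour 2 and LSD1 tumour 3, and the p53+/− genotype by 1 tumour, here the p53 tumour, with 1 Cy3 array for each. All 3 tumours came from male mice, 10 weeks of age by the growth protocol, and shared p53 haploinsufficiency. LSD1 is a histone demethylase; whether the genotype adds or removes it, and under which promoter, is not given in the sources used here, and no pooling of animals is stated. The labels name the sample a splenic tumour in one field and isolated splenic cells in another.

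Toll-like receptors are membrane proteins of innate immunity that recognise molecules of microbes and of damaged cells. Tlr1, Tlr2, Tlr4, Tlr5 and Tlr6 act at the cell surface on lipopeptides, lipopolysaccharide and flagellin, while Tlr3, Tlr7, Tlr8, Tlr9 and Tlr13 sit in endosomes and sense nucleic acids. Ligand binding recruits the adaptor Myd88 or, for Tlr3, Ticam1, and leads to activation of NF-kappaB and interferon regulatory factors. In the spleen, B cells, macrophages, dendritic cells and neutrophils each carry their own set of these receptors.

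Values are processed signals divided by the array's 75th percentile, so that 1 is the level of that percentile; they are called scaled signals and are compared between arrays for 1 probe, never between probes. Between 51.5% and 55.6% of non-control spots were well above background on each array, by the flag of the scanner software, and no non-control spot was saturated. Each Toll-like receptor probe had 1 spot. Among 300 probes printed in 10 spots, the median SD between spots lay between 0.0387 and 0.0414 log2 units per array, and the software's own error of the Toll-like receptor signals well above background lay between 10.0% and 20.1%. These errors are technical, and the only spread between tumours of 1 genotype is that between the 2 LSD1 tumours. LSD1 tumour 3 and the p53 tumour shared slide 1 and scan 1, while LSD1 tumour 2 was alone on slide 2 and scan 2. The difference between LSD1 tumour 3 and the p53 tumour is therefore the within-slide value throughout, and what LSD1 tumour 2 shows apart from it cannot be told apart from its slide. In tumour RNA, fewer cells of a type and less RNA per cell cannot be told apart.

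**Figure D1:**
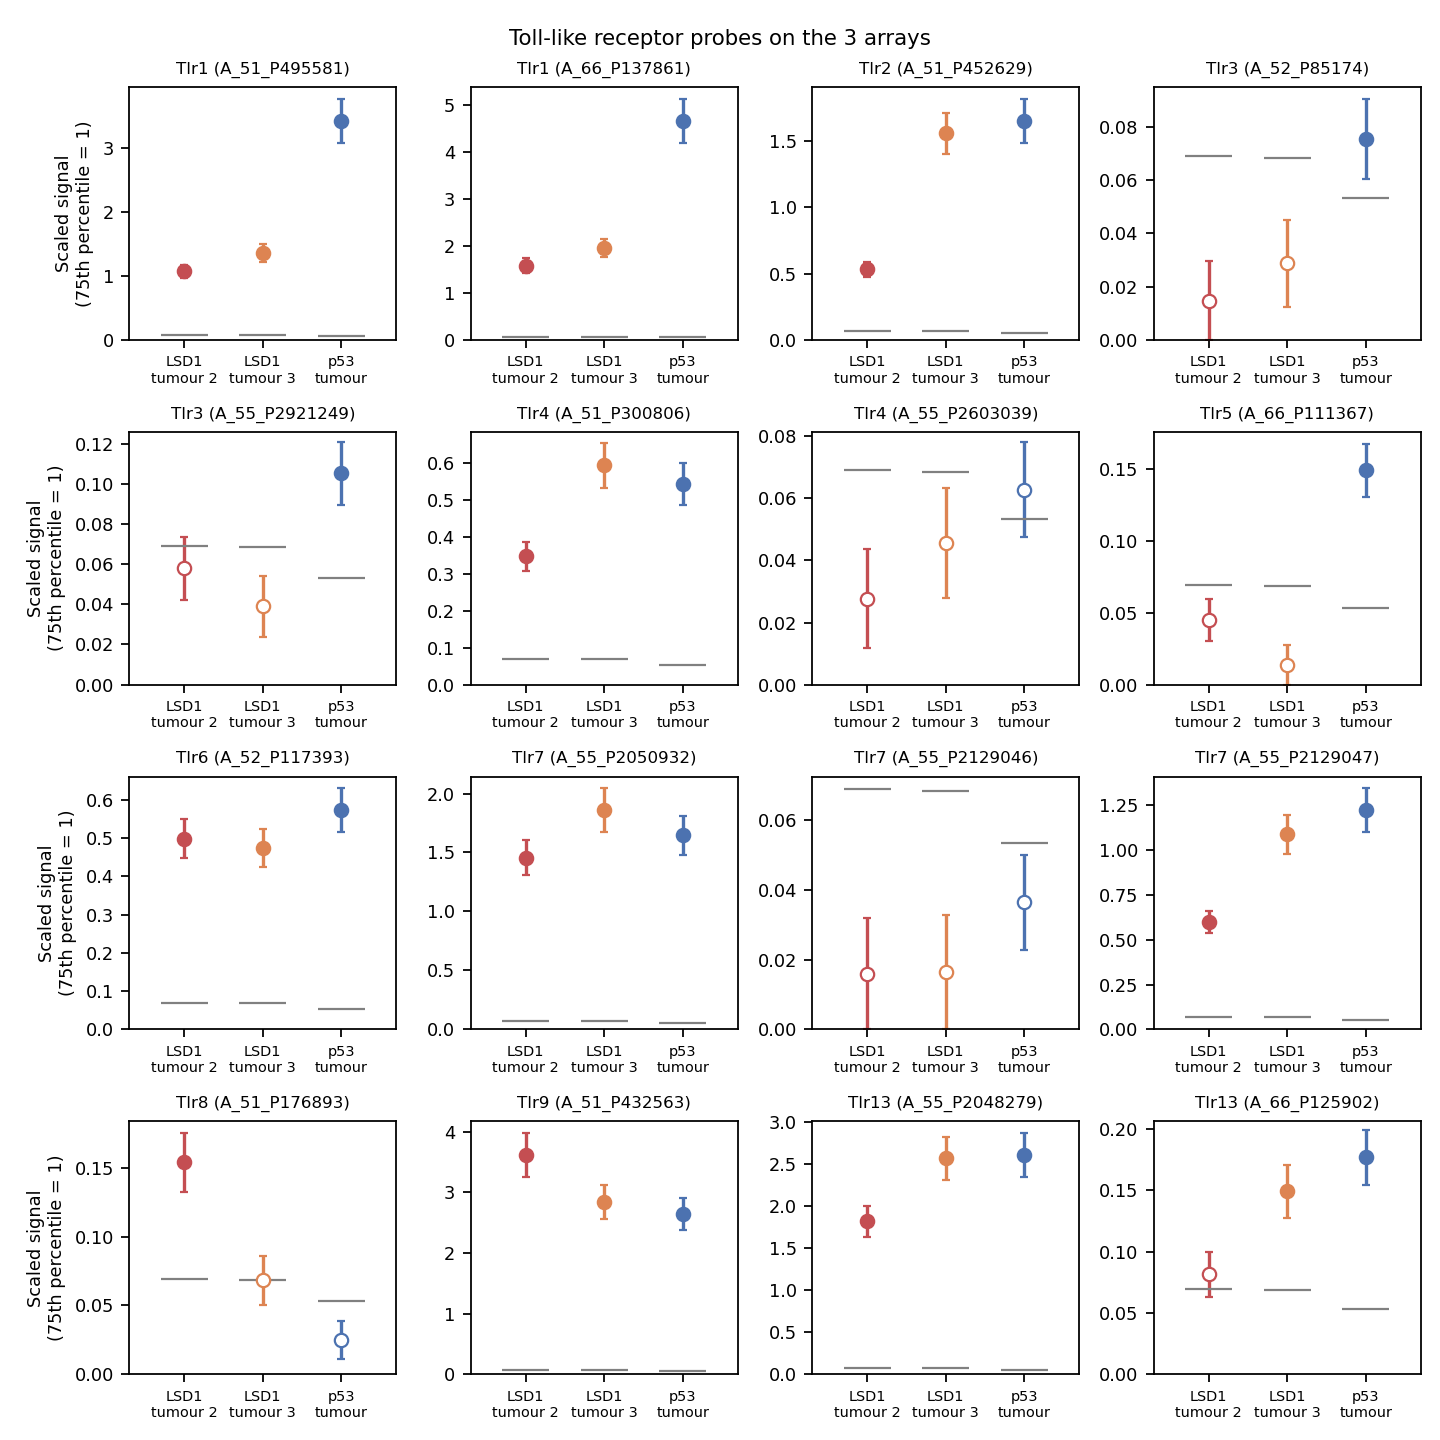
Scaled signal (75th percentile of the array = 1, linear axis from 0) of each of the 16 Toll-like receptor probes in LSD1 tumour 2, LSD1 tumour 3 and the p53 tumour, 1 array each. Filled points are well above background and open points are not, bars give the scanner software's error of the spot, and grey lines mark the lowest signal well above background on that array. Both Tlr1 probes are highest in the p53 tumour, Tlr3 and Tlr5 are above background there alone, and Tlr8 is above background in LSD1 tumour 2 alone.

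Among the surface receptors, Tlr1 had the largest mean difference among those measured on all 3 arrays. Tlr1 forms a heterodimer with Tlr2 that binds triacylated lipopeptides. Probe A_51_P495581 gave the scaled signals 1.07 and 1.35 in LSD1 tumours 2 and 3, against 3.42 in the p53 tumour. Probe A_66_P137861 gave 1.57 and 1.95 in LSD1 tumours 2 and 3, against 4.66 in the p53 tumour. On both probes the LSD1 tumours lay close together and the p53 tumour well above them. Relative to the p53 tumour, the first probe was lower by 3.21-fold (LSD1 tumour 2) and 2.52-fold (LSD1 tumour 3), and the second by 2.96-fold and 2.39-fold. The mean log2 difference was -1.51 ± 0.52 for the first probe and -1.41 ± 0.51 for the second (SE from limma, n = 2 against 1), larger than the gap of 0.35 and 0.31 log2 units between the LSD1 tumours in size. Neither passed limma's test (adjusted p = 0.892 for each, unadjusted p = 0.0543 and 0.0624). The 2 probes differed from each other by 0.11 log2 units in LSD1 tumour 2 and 0.08 in LSD1 tumour 3.

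Tlr6, the neighbouring gene whose product pairs with Tlr2 on diacylated lipopeptides, did not differ to that degree. Its scaled signal was 0.498 in LSD1 tumour 2 and 0.473 in LSD1 tumour 3, against 0.573 in the p53 tumour. The mean log2 difference of -0.24 had a 95% interval of -1.72 to 1.24 (limma, adjusted p = 0.952), so a difference as large as that of Tlr1 lies inside its interval. Tlr2, the shared partner, separated the LSD1 tumours. It stood at 0.532 in LSD1 tumour 2 and 1.56 in LSD1 tumour 3, against 1.65 in the p53 tumour. LSD1 tumour 3 and the p53 tumour differed by less than the software's error of 10.1% and 10.0% of the signal, and in the other direction with scaling to the median, whereas LSD1 tumour 2 was 3.11-fold below the p53 tumour. The gap of 1.55 log2 units between the LSD1 tumours exceeded the mean difference of -0.86 from the p53 tumour (adjusted p = 0.904).

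The promoters of Tlr1 and Tlr6 are shown because these neighbours on 1 chromosome differed in their values, and that of Tlr8 because it alone was above background in an LSD1 tumour and not in the p53 tumour. They are the 250 bases before the transcript start from RefSeq, in build GRCm38.p6, which is not the mm9 build of the array design. Capitals mark GAGGAA, the core bound by the myeloid factor PU.1, or GAAANNGAA, a core of the interferon-stimulated response element, on either strand. The first Tlr1 window (chr5:64933559-64933808, minus strand) holds 1 GAGGAA. The second (chr5:64932700-64932949, minus strand) holds neither motif, and neither does the second of Tlr6 (chr5:64960049-64960298, minus strand). The first window of Tlr6 (chr5:64959167-64959416, minus strand) holds 2 overlapping matches of GAAANNGAA. The Tlr8 window (chrX:167264330-167264579, minus strand) holds 1 match of each, which do not overlap.
Tlr1 first window: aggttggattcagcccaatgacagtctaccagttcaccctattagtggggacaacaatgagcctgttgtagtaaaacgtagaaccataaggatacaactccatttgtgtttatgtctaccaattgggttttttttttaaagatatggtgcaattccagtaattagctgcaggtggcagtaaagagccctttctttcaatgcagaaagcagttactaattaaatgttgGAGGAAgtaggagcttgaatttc
Tlr1 second window: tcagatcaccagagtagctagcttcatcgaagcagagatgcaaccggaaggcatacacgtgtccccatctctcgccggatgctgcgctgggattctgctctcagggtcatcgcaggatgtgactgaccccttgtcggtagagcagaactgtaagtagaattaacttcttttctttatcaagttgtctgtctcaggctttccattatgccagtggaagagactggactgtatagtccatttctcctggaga
Tlr6 first window: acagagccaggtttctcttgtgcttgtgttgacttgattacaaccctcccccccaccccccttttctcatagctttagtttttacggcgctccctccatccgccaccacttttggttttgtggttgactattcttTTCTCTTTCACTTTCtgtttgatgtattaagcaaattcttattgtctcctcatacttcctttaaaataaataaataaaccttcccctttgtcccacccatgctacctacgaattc
Tlr6 second window: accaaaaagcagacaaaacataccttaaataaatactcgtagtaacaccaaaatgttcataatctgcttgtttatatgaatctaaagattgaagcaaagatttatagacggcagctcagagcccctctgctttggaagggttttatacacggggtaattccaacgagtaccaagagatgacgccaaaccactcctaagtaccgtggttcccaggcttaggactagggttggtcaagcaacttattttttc
Tlr8 window: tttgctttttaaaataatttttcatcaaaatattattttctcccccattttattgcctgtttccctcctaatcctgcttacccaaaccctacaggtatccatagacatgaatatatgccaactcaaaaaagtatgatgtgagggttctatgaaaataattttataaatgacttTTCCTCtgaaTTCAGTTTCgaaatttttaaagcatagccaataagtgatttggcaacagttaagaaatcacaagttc
Of the 10 windows of 300 bases matched to the members other than Tlr4 and Tlr7, 4 held GAGGAA, against 28.3% of all 32851 windows, and 2 held GAAANNGAA, against 8.56% of all. The other windows with GAGGAA were those of Tlr9 and Tlr13. A match is a run of letters and not a measured binding site.

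The receptor for lipopolysaccharide was measured on all 3 arrays by 1 of its probes, and that for flagellin on 1 array. Tlr4, the lipopolysaccharide receptor, stood at 0.348 in LSD1 tumour 2 and 0.594 in LSD1 tumour 3, against 0.544 in the p53 tumour, by probe A_51_P300806. The p53 tumour lay between the LSD1 tumours, but above both in the authors' table, with a mean log2 difference of -0.26 (95% interval -2.10 to 1.58, limma adjusted p = 0.960). Its other probe, A_55_P2603039, was not well above background on any array, and its levels there of 0.0277 and 0.0458 in LSD1 tumours 2 and 3, against 0.0629 in the p53 tumour, have no order. Tlr5, the flagellin receptor, was well above background in the p53 tumour alone. Its scaled signal was 0.0448 in LSD1 tumour 2 and 0.0138 in LSD1 tumour 3, neither well above background, against 0.149 in the p53 tumour. Set against the lowest level well above background on each array, the Tlr5 bounds were at least 2.16-fold lower for LSD1 tumour 2, at least 2.18-fold lower for LSD1 tumour 3 and at least 2.17-fold lower for their group mean (limma, adjusted p = 0.892). With normexp background correction the Tlr5 differences were -0.85 and -1.23 log2 units, with a mean of -1.04. The bounds therefore hold for the processed signal. By normexp those for LSD1 tumour 2 and for the group mean were not reached.

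The endosomal receptors Tlr7, Tlr9 and Tlr13, by their probes measured on all 3 arrays, differed from the p53 tumour on average by less than the gap between the LSD1 tumours. Tlr9, the receptor for unmethylated CpG DNA, had the scaled signals 3.61 in LSD1 tumour 2 and 2.84 in LSD1 tumour 3, against 2.64 in the p53 tumour. It was the only Toll-like receptor gene measured on all 3 arrays that was above the p53 tumour in both LSD1 tumours, by 0.45 and 0.10 log2 units; after quantile normalization, as well as in the authors' table, LSD1 tumour 3 was below the p53 tumour. Its mean difference of 0.28 was smaller than the gap of 0.35 between the LSD1 tumours (95% interval -1.28 to 1.83, limma adjusted p = 0.950).

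Tlr7, a receptor for single-stranded RNA, was read by 2 probes above background. Probe A_55_P2050932 gave 1.46 in LSD1 tumour 2 and 1.86 in LSD1 tumour 3, against 1.65 in the p53 tumour, which lay between them; in the authors' table LSD1 tumour 3 was below the p53 tumour. Probe A_55_P2129047 gave 0.600 and 1.09 in LSD1 tumours 2 and 3, against 1.22 in the p53 tumour, with LSD1 tumour 3 above the p53 tumour when scaled to the median. The probes thus disagreed in LSD1 tumour 2, where the second was 2.04-fold lower than in the p53 tumour and the first 1.13-fold lower, a spread of 0.85 log2 units between probes of 1 gene. The mean log2 differences were -0.0011 for the first probe and -0.60 for the second (limma, adjusted p = 1.0 and 0.908). The third probe, A_55_P2129046, was not well above background on any array, with 0.0160 and 0.0163 in LSD1 tumours 2 and 3 and 0.0364 in the p53 tumour.

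Tlr13, which recognises bacterial ribosomal RNA in mice, stood at 1.82 in LSD1 tumour 2 and 2.56 in LSD1 tumour 3, against 2.60 in the p53 tumour, by probe A_55_P2048279. Its dimmer probe, A_66_P125902, gave 0.0814 in LSD1 tumour 2, not well above background, and 0.149 in LSD1 tumour 3, against 0.177 in the p53 tumour. The brighter probe placed LSD1 tumour 2 lowest and LSD1 tumour 3 next to the p53 tumour, or above it when scaled to the median, with a mean log2 difference of -0.27 (limma, adjusted p = 0.952) that was smaller than the gap of 0.50 between the LSD1 tumours. The dimmer probe had an adjusted p of 0.897 by limma on the values as measured.

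Tlr3 and Tlr8 were near the detection limit. Tlr3, the receptor for double-stranded RNA, gave 0.0147 and 0.0287 in LSD1 tumours 2 and 3, against 0.0754 in the p53 tumour, by probe A_52_P85174. Its other probe, A_55_P2921249, gave 0.0580 and 0.0390, against 0.105 in the p53 tumour. Both probes were well above background in the p53 tumour alone, where the software's error was 20.1% and 15.1% of the signal. The bounds were small: the LSD1 group was at least 1.1-fold lower by the first probe and at least 1.53-fold lower by the second (limma on the values as measured, adjusted p = 0.892 for each). With normexp the second probe differed by -0.50 and -0.46 log2 units in LSD1 tumours 2 and 3, short of its bounds of 0.61 and 0.62.

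Tlr8, which in humans senses products of RNA breakdown, was tested only through LSD1 tumour 2, and so had to be higher there. Its scaled signal was 0.154 in LSD1 tumour 2, well above background, and 0.0683 in LSD1 tumour 3, not so, against 0.0248 in the p53 tumour, not so either. Relative to the p53 tumour it was higher by at least 2.89-fold in LSD1 tumour 2, the 1 LSD1 array that measured it (limma on the values of both LSD1 tumours, adjusted p = 0.892). By normexp the difference in LSD1 tumour 2 was 0.95 log2 units, under that bound.

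**Figure D2:**
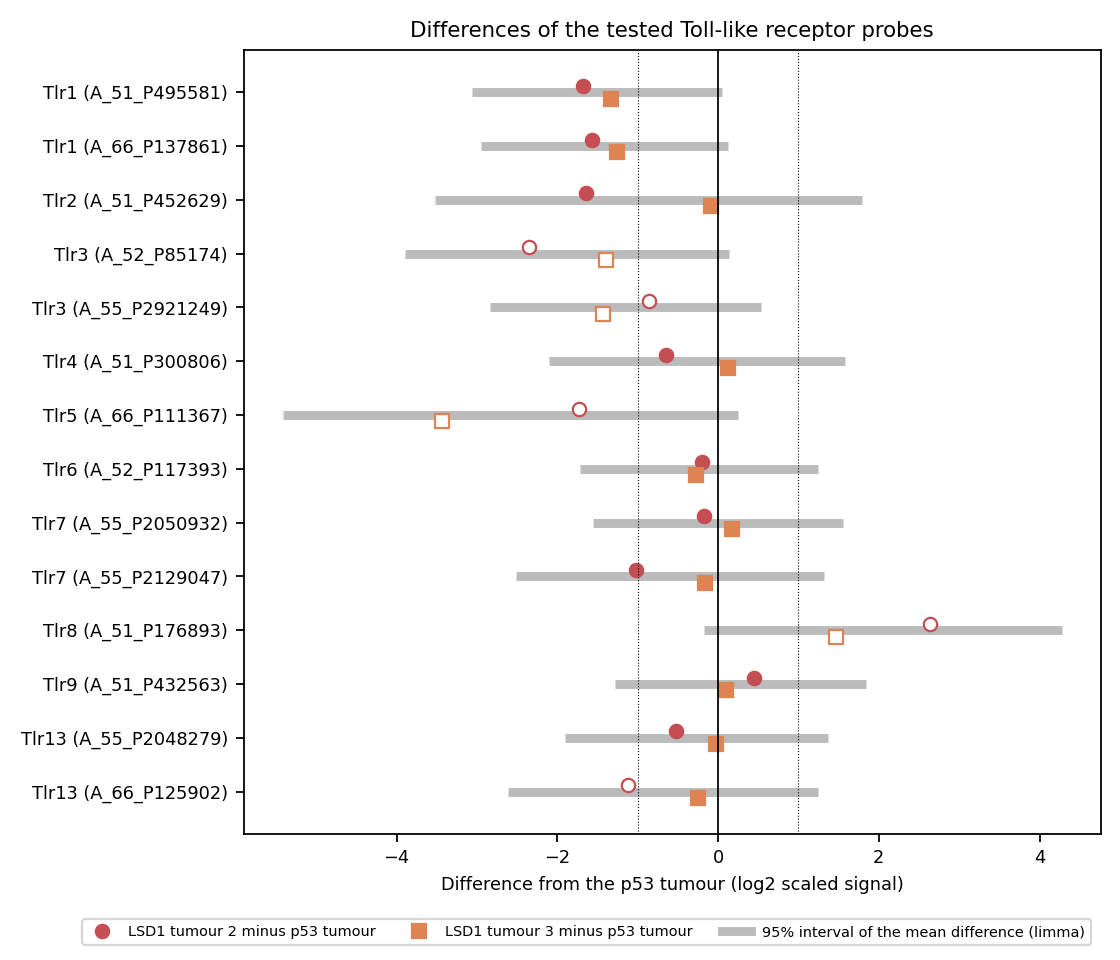
Log2 difference in scaled signal from the p53 tumour for the 14 tested Toll-like receptor probes in LSD1 tumour 2 (circles) and LSD1 tumour 3 (squares); an open symbol has at least 1 side not well above background. Grey bars give limma's 95% interval of the mean difference (n = 2 against 1) and dotted lines a 2-fold difference; every interval contains 0, and both Tlr1 probes lie below -1 in both tumours.

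Across the family, 14 of the 16 probes were well above background on at least 1 array and were tested, and 9 were so on all 3. Both tumours' differences share the p53 array. limma called none of the 14 at an adjusted p of 0.05 and none at an unadjusted p under 0.05, with adjusted p from 0.892 to 1.0; over the 32889 probes tested it called 0.0% and 4.53%. The standard errors of the Toll-like receptor differences lay between 0.49 and 0.94 log2 units.

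By size, with no test, 4 of the 14 probes, all well above background in the p53 tumour, were lower by 2-fold or more in each LSD1 tumour: both Tlr1 probes, A_52_P85174 of Tlr3 and the Tlr5 probe. Over all probes tested the share was 7.31%. Counted by bounds, 3 probes were left, of Tlr1 and Tlr5, beside 5.16% of all probes. Tlr3 and Tlr5 were tested only through the p53 tumour, and so had to be lower in the LSD1 tumours. Among probes well above background on all 3 arrays the count was 2 of 9, both of Tlr1, beside 4.01% of 25499. None of the 14 was at least 2-fold higher in both (3.63% of all). Of the probes past 2-fold in both tumours, 33.2% were higher, but 11.8% in the authors' value table, 43.5% with scaling to the median and 49.2% among probes above background on all 3 arrays.

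Over the 9 probes measured on all 3 arrays, the median log2 difference was -0.65 in LSD1 tumour 2 and -0.09 in LSD1 tumour 3, beside 0.05 and 0.14 over all 25499 such probes. The median in LSD1 tumour 3 depended on the scaling, at 0.11 with scaling to the median and -0.45 in the authors' table. The p53 tumour lay above both LSD1 tumours for 6 of the 9 (29.0% of all) and below both for 1, Tlr9 (40.1% of all). The first count was 3 with scaling to the median and 8 in the authors' table, and the second was 0 in that table and with quantile normalization. The mean difference exceeded the gap between the LSD1 tumours in 3 of the 9, both Tlr1 probes and Tlr6, beside 48.9% of all. Between the LSD1 tumours, Tlr2 and Tlr8 were at least 2-fold apart, 2 of 14 beside 25.0% of all probes. LSD1 tumour 2 was below LSD1 tumour 3 in 7 of the 9, beside 52.7% of all.

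Tlr11 and Tlr12, the receptors for a profilin of protozoan parasites in mice, were read from 1 probe each. Tlr11 gave 0.0424 in LSD1 tumour 2, not well above background, and 0.178 in LSD1 tumour 3, against 0.458 in the p53 tumour. Against the p53 tumour, LSD1 tumour 2 was at least 6.63-fold lower and LSD1 tumour 3 was 2.57-fold lower. With normexp the Tlr11 difference in LSD1 tumour 2 was -1.91 log2 units, short of that bound, which is 2.73 log2 units. Tlr12 gave 1.87 and 1.65 in LSD1 tumours 2 and 3, against 3.80 in the p53 tumour, and was 2.03-fold and 2.31-fold lower. Neither passed limma's test (adjusted p = 0.892 for each).

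Genes that serve the receptors were read from 1 probe each, that with the highest mean signal. In these lists limma called no gene at an adjusted p of 0.05 and 1, Il12a, at an unadjusted p under 0.05. By size, of the 15240 genes tested, 5.38% were lower and 3.48% higher by 2-fold or more in each LSD1 tumour. Of the 10 accessory and trafficking genes none was past 2-fold in both, and their median log2 difference was -0.80 (LSD1 tumour 2) and -0.30 (LSD1 tumour 3). Unc93b1, which carries the endosomal receptors out of the endoplasmic reticulum, stood at 6.16 and 15.8 in LSD1 tumours 2 and 3, against 20.2 in the p53 tumour. The lipopolysaccharide coreceptor Cd14 was 2.47-fold and 1.59-fold lower and the receptor chaperone Cnpy3 1.39-fold and 1.33-fold lower. Cd180, a Tlr4 homologue of B cells, was 2.19-fold and 1.30-fold lower, although its other probe stood 0.42 log2 units above the p53 tumour in LSD1 tumour 3.

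Of 4 adaptor genes above background, none was past 2-fold in both LSD1 tumours, and their median was -1.02 in LSD1 tumour 2 but 0.27 in LSD1 tumour 3, or -0.09 there in the authors' table; Ticam2 and Sarm1 were not well above background on any array. Myd88 stood at 3.64 and 5.77 in LSD1 tumours 2 and 3, against 3.97 in the p53 tumour, which lay between them. Tirap, which bridges Tlr2 and Tlr4 to Myd88, was 2.28-fold lower in LSD1 tumour 2, whereas LSD1 tumour 3 was 2.02-fold above the p53 tumour. Ticam1, the adaptor of Tlr3, differed by -0.85 and 0.01 log2 units, and Pik3ap1, which links the receptors to phosphoinositide signalling, was 3.63-fold and 1.25-fold lower.

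The 15 kinases and ubiquitin ligases were close to the p53 tumour, their medians being -0.13 (LSD1 tumour 2) and -0.04 (LSD1 tumour 3; 0.15 when scaled to the median), and none was past 2-fold in both. The largest mean differences were in Ikbkb, a kinase that releases NF-kappaB (1.76-fold and 2.17-fold lower), Peli1 (1.22-fold and 2.31-fold lower), Irak4 (1.22-fold and 1.70-fold lower) and Map3k7 (1.27-fold and 1.47-fold higher, with both other probes on average lower). The 10 transcription factors had medians of -0.91 and -0.65, with none past 2-fold in both. Irf5, which acts downstream of Myd88, was lower by 4.0-fold in LSD1 tumour 2 but by 1.52-fold in LSD1 tumour 3. Irf8, a factor of dendritic cells, B cells and monocytes, was 3.18-fold and 1.77-fold lower, the NF-kappaB subunit gene Relb 1.74-fold and 2.68-fold lower, and its relative Rel 2.18-fold and 1.90-fold lower. Limma's adjusted p was 0.892 for these 4 factors.

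Of 10 inhibitors of the pathway none was past 2-fold in both (medians -0.35 and -0.87). Irak3, which blocks the Myd88 complex, was 2.53-fold and 1.76-fold lower, and Nfkbia, the inhibitor that holds NF-kappaB in the cytoplasm and is itself its target, was 1.58-fold and 2.33-fold lower. The deubiquitinase gene Cyld was 1.39-fold and 2.04-fold lower, and Socs1 was 1.03-fold and 2.53-fold higher. Of 6 endogenous ligands none was past 2-fold in both, but their medians were above 0, at 0.87 and 0.44. The calprotectin genes S100a8 and S100a9, whose product binds Tlr4, were both higher: S100a8 by 2.15-fold and 1.95-fold in LSD1 tumours 2 and 3, and S100a9 by 1.85-fold and 1.67-fold. Hmgb1, a chromatin protein released by dying cells, was 2.22-fold and 1.38-fold higher, and the matrix gene Tnc was detected only in the p53 tumour, at least 1.15-fold and 1.16-fold above LSD1 tumours 2 and 3.

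Among 19 target genes 16 were above background on at least 1 array, and 2 of them were lower, and none higher, by 2-fold or more in each LSD1 tumour. Their median log2 difference was -1.14 (LSD1 tumour 2) and -0.15 (LSD1 tumour 3; 0.05 when scaled to the median). Il12a, a subunit of interleukin 12, stood at 0.126 and 0.139 in LSD1 tumours 2 and 3, against 0.389 in the p53 tumour. The costimulatory receptor gene Cd40 stood at 0.459 and 0.421, against 1.17 in the p53 tumour. In both genes the LSD1 tumours were close to each other and below the p53 tumour (limma, adjusted p = 0.892 for each). Il10 was above background in LSD1 tumour 3 alone, at least 11.7-fold above the p53 tumour, and Ifnb1 in LSD1 tumour 2 alone, at least 1.32-fold above it. Il6, Cxcl2 and Ptgs2 were not well above background on any array.

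**Figure D3:**
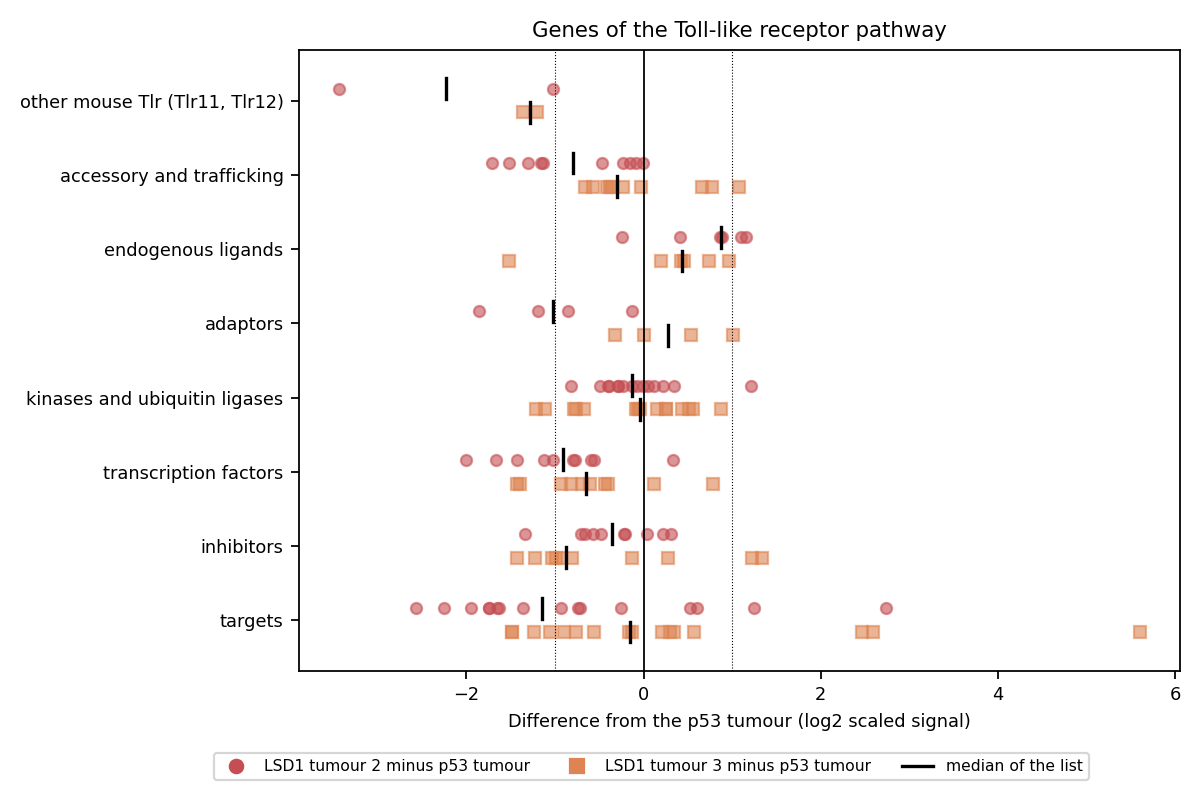
Log2 difference in scaled signal from the p53 tumour for the genes of each pathway list above background on at least 1 array, in LSD1 tumour 2 (circles) and LSD1 tumour 3 (squares), 1 probe a gene. Black bars are list medians and dotted lines a 2-fold difference; the transcription factors have medians of -0.91 and -0.65 and the endogenous ligands 0.87 and 0.44.

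Marker genes of cells that carry these receptors were set beside the values above. Markers of spleen cells were present: all 9 macrophage and monocyte, 7 B cell, 6 erythroid and 5 endothelial markers were well above background on all 3 arrays. The summed scaled signal of the B cell markers was 36.1 in LSD1 tumour 2 and 141 in LSD1 tumour 3, against 220 in the p53 tumour. Of the 7, 3 were at least 2-fold lower in both, beside 5.38% of all genes tested. That of the 8 conventional dendritic cell markers was 6.33 and 7.85, against 15.4 in the p53 tumour. Of these, 4 were at least 2-fold lower in both, beside 5.38% of all genes tested. They were Clec9a and Flt3, measured on all 3 arrays, and Cd209a and Clec4a4, tested only through the p53 tumour and so bound to be lower. Xcr1 was likewise well above background in the p53 tumour alone. Most of the dendritic cell sum was Itgax (3.49 and 3.37 in LSD1 tumours 2 and 3, against 6.56 in the p53 tumour) and Batf3 (2.03 and 2.85, against 2.89). Zbtb46 was above the p53 tumour in LSD1 tumour 3, at 0.498 against 0.230, and stood at 0.201 in LSD1 tumour 2. Its other probe differed by -1.75 log2 units in LSD1 tumour 2 and 1.18 in LSD1 tumour 3. The 5 endothelial markers summed to 8.10 and 11.1 in LSD1 tumours 2 and 3, against 15.7 in the p53 tumour, with none past 2-fold in both. These 3 sums were highest in the p53 tumour, as was that of the plasmacytoid dendritic cell markers given below. The part of these cells in the Toll-like receptor values was not tested.

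The macrophage and monocyte markers summed to 149 in LSD1 tumour 2 and 202 in LSD1 tumour 3, against 202 in the p53 tumour, and none of the 9 was past 2-fold in both. Their median log2 difference was -0.36 (LSD1 tumour 2) and -0.07 (LSD1 tumour 3; 0.12 when scaled to the median), and single markers ran between -1.73 for Ly6c2 and 1.09 for Lyz2 in LSD1 tumour 2, and between -2.37 for Lyz2 and 1.51 for Fcgr1 in LSD1 tumour 3. The part of macrophages in the Toll-like receptor values was not tested. The 6 plasmacytoid dendritic cell markers summed to 150.0 and 145, against 178 in the p53 tumour. Most of that sum was Siglech, at 137 and 124 in LSD1 tumours 2 and 3, against 155 in the p53 tumour. The other Siglech probe was lower by 3.28 and 3.35 log2 units. Klk1 alone in this list was at least 2-fold lower in both. The p53 tumour had a Klk1 level of 0.957, LSD1 tumour 3 had 0.117, and LSD1 tumour 2 had 0.0499, not well above background. Its adjusted p was 0.892 by limma. The neutrophil markers summed to 156 and 145 in LSD1 tumours 2 and 3, against 132 in the p53 tumour. Most of that sum was Csf3r, at 106 and 93.6, against 111 in the p53 tumour. Of the 7 markers, 5 were at least 2-fold higher in both (Mpo, Elane, Ngp, Camp and Mmp8), beside 3.48% of all genes tested. Cxcr2 was at least 2-fold lower in both. T cell markers summed to 178 and 21.5, against 51.0 in the p53 tumour, and were thus highest in LSD1 tumour 2. The erythroid markers summed to 468 and 865, against 682 in the p53 tumour. The part of neutrophils, T cells and erythroid cells in the Toll-like receptor values was not tested either.

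**Figure D4:**
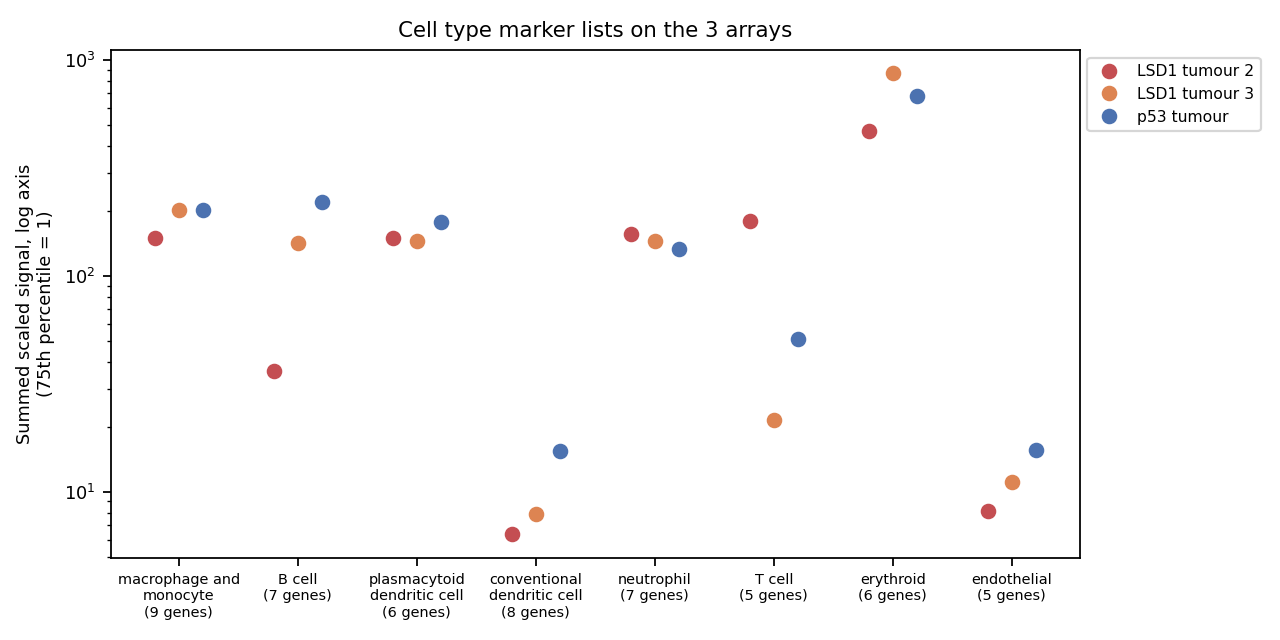
Summed scaled signal (log axis) of the markers of each cell type in LSD1 tumour 2, LSD1 tumour 3 and the p53 tumour, 1 array each and 1 probe a gene. B cell and conventional dendritic cell markers sum to 36.1, 141 and 220 and to 6.33, 7.85 and 15.4 in that order of tumours.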

How the data were processed

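Total RNA of 3 splenic tumours was labelled with Cy3 and hybridised to 1 array each, per the labels' protocols. The authors deposited 1-colour scanner output (Agilent Feature Extraction 11.5.1.1; design build mm9), per the file headers: a linear intensity, background-subtracted and detrended within the array, with flags and an error per spot. Their value table holds the same intensities times 1 factor per array (0.779 for LSD1 tumour 2, 0.902 for LSD1 tumour 3, 1.06 for the p53 tumour); what set the factors is not stated.

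Signals were divided by the array's 75th percentile over non-control spots (LSD1 tumour 2: 712, LSD1 tumour 3: 554, p53 tumour: 608) before log2. Spots with an outlier flag were dropped, spots of 1 probe averaged, and 16 probes without an unflagged spot removed. Names came from RefSeq transcripts (GRCm38.p6; 32994 of 56605 probes named). The 32889 probes that any array measured well above background were fitted with limma 3.58.1 in R 4.3.3 (LSD1 × p53+/− against p53+/−, Benjamini-Hochberg over all). The fit had 1 residual degree of freedom (3.34 with the prior), so the lone p53 array is assumed to vary like the LSD1 arrays. Only the limma fit was run on simulated arrays, with 1 common spread for all probes. The scaling, the filter on dim probes, the bounds and the 2-fold counts were not. A difference of at least 2-fold in both tumours was counted without a test, and "at least" folds use each array's lowest signal well above background. The p-values rest only on the spread between the 2 LSD1 tumours, which were on different slides, combined with limma's prior from all probes.

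Named were all Toll-like receptor probes and, from each pathway list, the up to 4 genes with the largest mean difference; markers were named beside the results they touch. With 3 arrays, no gene was named for likeness of pattern. Members and lists were chosen with earlier results of these data known. Protein and probe sequences were not used here. The alternatives were normexp (offset 50, on median signals, since the files used give no mean signal), quantile normalization, scaling to the median, the authors' value table, other filters on dim probes, 1 probe a gene, slide as a block and leaving out each LSD1 tumour.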

Additional observations from a re-analysis of the deposited data

How the results depend on the processing

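No probe was called under the 7 tested alternatives, so none crossed the threshold. Of 89 probe results, 87 kept their direction. The other filters on dim probes and 1 probe a gene leave a probe's own difference as it is. Their share of the 89 therefore could not turn, and within the 89 only the other scalings and normexp could change a direction. The 2 that turned were A_55_P2050932 of Tlr7 and Tlr9. The first had a mean difference of 0.11 log2 units with scaling to the median, and Tlr9 stood at -0.013 in the authors' value table. Outside the 89, slide as a block, which gives the within-slide value, also turned directions. There A_51_P300806 of Tlr4 stood at 0.13 against a mean difference of -0.26, and A_55_P2050932 of Tlr7 at 0.17 against -0.0011. That table moved the median mean difference of all tested probes to -0.22, and scaling to the median moved it to 0.18, against 0.07 in the values reported. The count of Toll-like receptor probes lower by 2-fold or more in each LSD1 tumour was 4. It was 2 with normexp, 2 among probes above background on all 3 arrays and 2 with 1 probe a gene, fewer probes being counted in the last 2. In the authors' value table it was 5. Leaving out 1 LSD1 tumour gave 5 without tumour 2, which is also the within-slide count, and 7 without tumour 3; 0 and 1 probes were then at least 2-fold higher. Tlr2, A_55_P2129047 of Tlr7 and A_66_P125902 of Tlr13 were past 2-fold lower in LSD1 tumour 2 and not in LSD1 tumour 3; the fifth probe without tumour 2 was A_55_P2921249 of Tlr3, not well above background in either. The count of probes that set the LSD1 tumours 2-fold or more apart was 2, but 1 with normexp and 1 among probes above background on all 3 arrays. It was 3 with quantile normalization and 4 with scaling to the median. The median mean difference of the Toll-like receptor probes, -0.64, lay between -0.26 and -0.93 under the alternatives with all 3 arrays, at -0.27 for probes above background on all of them. It was -0.21 with slide as a block or without tumour 2, and -0.94 without tumour 3. No paired analysis was possible because the groups share no replicate number. A leave-out fit of 1 array against 1 has no residual degree of freedom and gave values only. With 1 p53 tumour, no result separates the genotype from that animal. Dim probes (Tlr3, Tlr5, Tlr8 and 1 probe each of Tlr4, Tlr7 and Tlr13) give bounds or no order.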
